A study of Mus musculus with 29 samples.

Results

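The 200 transcripts described here were those highest in wild-type mouse zygotes relative to fully grown oocytes of 4-week-old females and metaphase II oocytes. They were chosen from the wild-type (WT) libraries alone. A gene was ranked if its mean level in WT zygotes was at least 20 CPM, its share of the library's counts, in parts per 1000000, once the ribosomal RNA gene Rn18s-rs5 is removed. It was ranked by the ratio of its mean WT zygote level plus 1 to the larger of its mean levels in WT fully grown oocytes of 4-week-old females and in WT metaphase II oocytes plus 1. Of 49997 genes 5826 were ranked, and the 200 at the top are the members. Poly(A) RNA had been sequenced by Smart-seq2 in 29 libraries, each from a tube of 10 cells. WT females were Dhx36 fl/fl without Cre. Conditional knockout (CKO) females were Dhx36 fl/fl; Zp3-Cre, so both genotypes carried the floxed alleles. The Zp3 promoter drives Cre in growing oocytes, and Dhx36 encodes a helicase that unwinds G-quadruplexes in RNA and DNA. Each genotype had 3 libraries of growing oocytes at 2 weeks (GO 2W), 2 of fully grown oocytes at 3 weeks (FGO 3W), 3 of fully grown oocytes at 4 weeks (FGO 4W) and 3 of zygotes from 3-week-old females (zygote 3W). Metaphase II oocytes at 3 weeks (MII 3W) gave 3 WT libraries and 4 CKO libraries. FGO 4W differs from MII 3W and zygote 3W in age as well as in stage, which cannot be told apart.

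The mouse oocyte stops transcribing when it is fully grown, and meiotic maturation and fertilisation run on stored maternal messages. Many of these messages are destroyed between maturation and the embryo's own transcription, which begins faintly in the zygote. Others are held with short poly(A) tails and receive longer tails at maturation or fertilisation, and oligo(dT) priming as in Smart-seq2 reads RNA through its tail, so a level in these data can follow tail length as well as the amount of RNA.

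Libraries held between 17697507 and 49104313 counts. Mean whole-gene Dhx36 counts were not lower in CKO at any stage, with 80.4 CPM in WT and 98.4 CPM in CKO at GO 2W and 343 and 477 CPM in zygotes. The largest difference was at MII, with means of 304 CPM in WT and 1295 CPM in CKO, whose libraries ran from 297 to 2912 CPM. The labels do not name the deleted exons, so a whole-gene count cannot check the genotype. All 19 oocyte markers passed the filter on low counts and summed to between 1.58e+04 and 3.24e+04 CPM in the MII and zygote libraries. None of the members was among the markers of cumulus and granulosa cells, oviduct, blood, sperm or oocytes. Blood markers summed to at most 4.86 CPM in these libraries except in CKO zygotes, where they reached 54.8 CPM, with Hbb-bs and Hbb-bt at 0 in every zygote library. Cumulus and granulosa markers summed to between 446 and 503 CPM in WT zygotes and between 278 and 435 CPM in CKO zygotes. In MII they summed to more, between 823 and 845 CPM in WT and between 675 and 972 CPM in CKO. Oviduct markers summed to 334 to 377 CPM in WT MII and 63.4 to 115 CPM in WT zygotes. In CKO the oviduct sums were 341 to 439 CPM in MII and 78.6 to 137 CPM in zygotes. A pair of libraries stood apart in ribosomal RNA. Rn18s-rs5 took 27.3% of the counts of CKO zygote replicate 1 and 21.9% of those of CKO MII replicate 3, against 1.61% to 8.43% in the other libraries. Whether libraries of 1 group came from different animals is not in the labels, and a p-value here measures only the spread among these samples, which may be technical. CPM are shares of a library of pooled cells, so fewer cells holding a transcript and less of it per cell cannot be told apart.

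The rule's ratio reached 2 in 74 members, 4 in 6 and 10 in 5, with a median of 1.89 against 0.819 over all ranked genes. These values chose the members and are given as a description. The list therefore held a few transcripts that were nearly absent in WT FGO 4W and WT MII and a long tail that was moderately higher in zygotes. Only 5 members were under 5 CPM in both WT FGO 4W and WT MII, while 143 had at least 10 CPM in each of the 5 WT groups. All WT zygote libraries lay above all WT FGO 4W and MII libraries for 195 members, against 15.9% of ranked genes, which follows from the choice. The last members were Cdk17 with a ratio of 1.672 and Smurf1 with 1.671, and the first genes outside were Rtraf-ps with 1.669 and Rtraf with 1.668. CPM place WT MII low, because a normalisation by the trimmed mean of M values (TMM) would raise the log2 levels there by 0.638 to 0.689 and those of WT zygotes by 0.064 to 0.111. With TMM-normalised levels all 200 members kept a ratio over 1, with a median of 1.51 and a lowest value of 1.13, but only 101 of them stood among the top 200.

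WT GO 2W and WT FGO 3W played no part in the rule. Set beside them, 184 members were still highest in WT zygotes, 9 were highest in WT GO 2W and 7 in WT FGO 3W. The 9 included the lymphocyte checkpoint receptor gene Btla, the mitochondrial tethering gene Rmdn3 and the mitofusin gene Mfn2, and the 7 included the butyrophilin gene Btn1a1 and the stomatin gene Stom. The WT MII and WT FGO 4W means entered the rule, and their relation is a description. The WT MII mean was at most 50% of the WT FGO 4W mean in 28 members, against 30.6% of the ranked genes, and it was above it in 93 members.

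The gene at the top of the list was Vaultrc5, a vault RNA gene on chromosome 18 (36801763 to 36802107, GRCm38). It had 38.2, 37.1 and 90.2 CPM in the 3 WT zygote libraries and 0.524, 1.15 and 1.13 CPM in WT MII. In WT FGO 4W it had 0.174, 0 and 0.161 CPM. Every zygote library was thus far above every oocyte library. Rn7sk, which stood 6th and encodes the 7SK RNA that holds the elongation kinase P-TEFb inactive, had 33, 33 and 31.5 CPM in WT zygotes against 3.12, 2 and 1.99 CPM in WT MII. Neither RNA polymerase III product is normally polyadenylated, which is background knowledge, and both are short, so their counts in a poly(A) library are not a measure of their amount in the cell.

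The protein-coding members with the largest ratios were Btn1a1, Dph6, Spink2 and Pnrc1. Btn1a1, a butyrophilin known from milk fat, had 13.3, 36.4 and 44.8 CPM in WT zygotes and 0.0872, 0.61 and 0 CPM in WT FGO 4W. It also had 62.1 and 68.4 CPM in the 2 WT FGO 3W libraries, above every WT zygote library and far above the 4-week oocytes. Dph6, an enzyme of diphthamide synthesis on elongation factor EEF2, had 196, 363 and 516 CPM in WT zygotes and 9.77, 8.02 and 7.71 CPM in WT MII. Its growing oocytes held 103, 29.3 and 145 CPM, so it was high, low and high again across WT stages. Spink2, a serine protease inhibitor known from the sperm acrosome, had 11.8, 19.1 and 30 CPM in WT zygotes and at most 0.851 CPM in WT MII. Pnrc1, a nuclear receptor coactivator, had 187, 213 and 233 CPM in WT zygotes and 18.2, 17.1 and 9.98 CPM in WT MII, and its WT FGO 4W libraries had more, with 38.1, 34.2 and 95.6 CPM. These 4 genes had no overlap between zygotes and MII oocytes in WT.

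**Figure D1:**
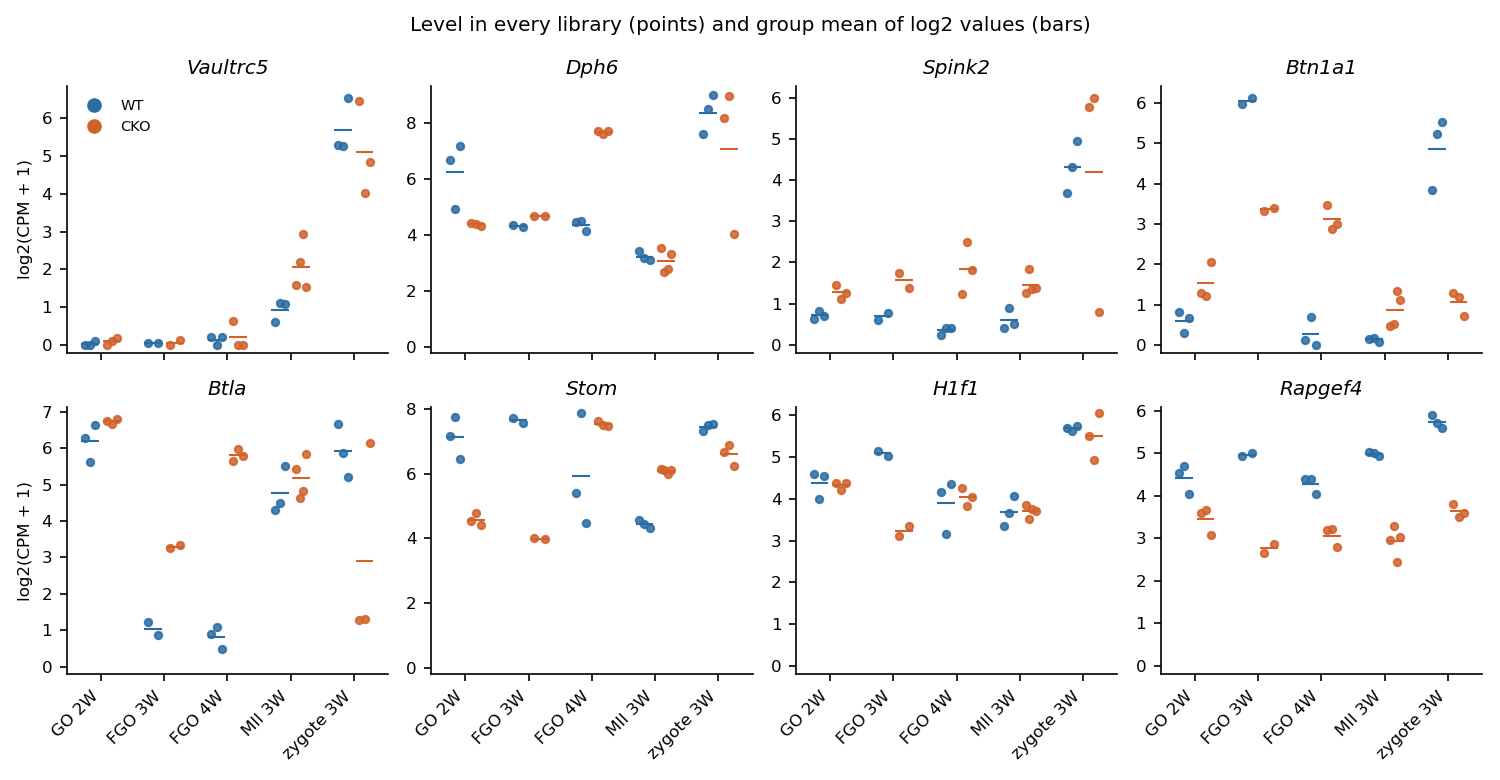
Levels of 8 members in every library as log2(CPM + 1), with stage and age on the x axis, WT in blue and CKO in orange, and bars at the group mean of the log2 values. Vaultrc5, Dph6, Spink2 and H1f1 were high in WT zygotes and in at least 2 of 3 CKO zygote libraries, whereas Btn1a1 stayed at or under 1.45 CPM in CKO zygotes and Rapgef4 was lower in CKO at all 5 stages.

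The most abundant members had other roles. Btf3, which encodes a subunit of the nascent polypeptide-associated complex, had 621, 629 and 765 CPM in WT zygotes. Per length it was also the highest member, with a mean of 565 FPKM (fragments scaled to transcript length and library total) against a median of 13.9 FPKM over the list. Mllt3, a subunit of the super elongation complex, had 431, 470 and 552 CPM in WT zygotes. Dcp2, the catalytic subunit of the mRNA decapping enzyme, had 370, 314 and 312 CPM there against 97.8, 88.8 and 121 CPM in WT MII. Eif4e1b, the oocyte form of the cap-binding protein eIF4E, had 300, 310 and 336 CPM against 109, 112 and 130 CPM. The homeobox gene Sebox, which acts in oocytes, had 167 CPM in each of the 3 WT zygote libraries. In all of these the zygote libraries stood apart from the MII libraries.

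Of the members 9 fell in any of the 19 lists of related genes used for these data. None was in the lists of 2-cell and genome activation genes, heat shock genes, S phase genes, cytoplasmic ribosomal proteins, oxidative phosphorylation, proteasome subunits or the p53 response. These lists held 13, 11, 37, 30, 39, 29 and 4 ranked genes in that order, so each alone could lack a member through its size. Dcp2, the RNA-packaging gene Ybx1 and the terminal uridylyltransferase gene Tut7 were 3 of 42 genes for mRNA storage, polyadenylation and decay, 31 of them ranked. Eif4e1b and Eif3j1 were 2 of 81 translation factor genes, 53 of them ranked. Single members came from the histone genes (H1f1, a linker histone), the mitochondrial ribosomal proteins (Mrps23), the maternal chromatin genes (the histone demethylase gene Kdm4a) and the genes of mitosis and ubiquitin transfer (Ube2s, which extends ubiquitin chains for the anaphase-promoting complex). The lists they came from held 7, 37, 32, 38 and 23 ranked genes in that order. By annotation 182 members (91%) were protein-coding, against 96% of ranked genes, and 11 (5.5%) were long non-coding, against 2.21%. Another 6 were pseudogenes, whose reads may be shared with their parent genes, and their values are uncertain.

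A predicted G-quadruplex motif was more frequent in the members than in the other ranked genes, which is given as a description without a test. The motif searched was GGG, or a longer G run, 4 times over with 1 to 7 bases between runs, on the sense strand of 1 GENCODE vM21 coding transcript per gene, which 175 members and 5483 ranked genes had. It was found in 67 members (38.3%) and in 18.1% of ranked genes. The difference lay in the 3′ UTR, where 47 members (26.9%) and 9.01% of ranked genes held it, rather than in the 5′ UTR with 11.4% and 8.19% or in the coding part with 2.86% and 2.5%. The share in the 3′ UTR went down with rank, from 26.9% in the members to 15.2% in the next 200 genes, 13% to rank 800, 10.5% to rank 1600, 8.6% to rank 3200 and 6.53% beyond. A match is a description of letters and not a site shown to fold.

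The 6 members shown, at ranks between 21 and 33, were the first by rank with a short match in the 3′ UTR. A limit was set on the length of the match, and a chromosome was passed over. This way of choosing was set after values were seen. Members of higher rank with longer matches, on that chromosome or without a coding transcript may hold the motif there too. The 6 matches were the following, from the GRCm38 genome with the G runs in capitals.
Midn, chr10:80157935-80157950, plus strand: GGGGtGGGtGGGtGGG
Msl2, chr9:101103758-101103775, plus strand: GGGtGGGGcGGGGGtGGG
Msl1, chr11:98806256-98806276, plus strand: GGGGtGGGGccGGGGGtaGGG
Paip2b, chr6:83808717-83808733, minus strand: GGGcGGGttGGGttGGG
Arhgef12, chr9:42968199-42968223, minus strand: GGGGGtgctatGGGGGGtGGGtGGG
Max, chr12:76937834-76937850, minus strand: GGGtGGGGctGGGaGGG
They are shown because they spell out what the share in the 3′ UTR counts. Midn encodes an adaptor that brings nuclear proteins to the proteasome, Msl1 and Msl2 encode subunits of 1 histone acetyltransferase complex, and Paip2b inhibits translation through poly(A)-binding protein. Max encodes the dimerisation partner of Myc.

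**Figure D2:**
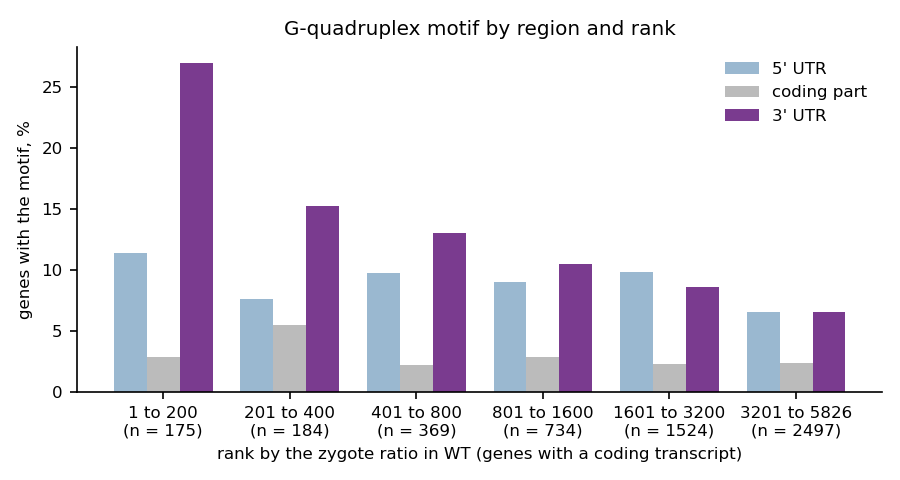
Share of genes (%, y axis) with the G-quadruplex motif in the 5′ UTR, coding part and 3′ UTR of 1 transcript per gene, by rank in the zygote ratio (x axis, with the number of genes that have a coding transcript). The 3′ UTR bar is 26.9% for the members and 6.53% beyond rank 3200, while the bars for the 5′ UTR are 11.4% and 6.53%.

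The share was also counted within classes of transcript length and GC content. Member transcripts were longer than those of ranked genes, with medians of 4072 and 3336 bases, and had longer 3′ UTRs, with medians of 1753 and 1244 bases, at a similar GC content of 48.5% and 48.2%. Within the lowest, middle and highest tertile of ranked transcripts by length, 28.9%, 29.3% and 49.4% of members had the motif, against 10.8%, 16.3% and 25.3% of the other ranked genes. Within tertiles of GC content the shares were 28.6%, 36.4% and 48.4% in members against 10.8%, 17.4% and 24.1%. The lists made with other levels also carried it, at 32.6% with TMM-normalised levels and 31.6% when the same rule was run on CKO libraries. All genes ranked in these ways had 18.1% and 19.7%. The 2 lists shared 101 and 37 genes with the members, so they are partly the same genes. Promoters, taken from RefSeq as 250 bases before to 50 after the start, held the motif on either strand in 59 of 158 members (37.3%), in 25.8% of ranked genes and in 18.1% of all 27025 promoters.

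Elements of tail control were counted in the same transcripts. The polyadenylation signal AATAAA or ATTAAA lay in the last 40 bases of 80.6% of member transcripts and 80% of ranked transcripts. The cytoplasmic polyadenylation elements TTTTAT or TTTTAAT lay in the last 100 bases of 22 members (12.6%) and of 22.6% of ranked transcripts. These shares are a description without a test, on annotated ends that may not be those used in oocytes.

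The CKO libraries were not used to choose the members, so the step from MII oocyte to zygote could be tested there. Across 21714 genes fitted in edgeR, 46 members were higher in CKO zygotes than in CKO MII oocytes at an adjusted p under 0.05, and 10 were lower. That is 23% and 5% of the 200, beside 12.8% and 9.13% of all genes tested and 20.8% and 16.9% of ranked genes. The median log2 change of the members was 0.23, against -0.02 for ranked genes. The higher share was thus close to that of ranked genes and the lower share was smaller. Against CKO FGO 4W, 149 members were higher and 6 lower, beside 23% and 21.8% of all genes and 50% and 21.6% of ranked genes, and the median was 1.08 against 0.53. Members above both CKO stages numbered 27 (13.5%), against 3.69% of ranked genes.

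The members that rose most in CKO zygotes included those that led the WT list. Dph6 had 290, 496 and 15.6 CPM in the CKO zygote libraries and 10.7, 5.42, 6.02 and 9.18 CPM in CKO MII, a log2 change of 4.92 (SE 0.611, edgeR adjusted p = 9.04e-07). All CKO zygote libraries were above all CKO MII libraries, but replicate 3 was nearer to the MII level than to the other zygotes. Spink2 had 54.4, 63.1 and 0.732 CPM in CKO zygotes and 1.38, 2.56, 1.54 and 1.58 CPM in CKO MII, a change of 4.31 (SE 0.678, edgeR adjusted p = 2.54e-05). Here replicate 3 was below every MII library. Vaultrc5 had 86.6, 15.1 and 27.7 CPM in CKO zygotes and 2.03, 3.59, 6.58 and 1.89 CPM in CKO MII, a change of 3.44 (SE 0.591, edgeR adjusted p = 7.77e-05), with no overlap.

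Members with steadier levels rose as well. Rmdn3, whose product tethers mitochondria to the endoplasmic reticulum, had 53.3, 37.6 and 19.4 CPM in CKO zygotes and 6.34, 8.51, 9.11 and 6.19 CPM in CKO MII, a log2 change of 2.12 (SE 0.238, edgeR adjusted p = 1.78e-07). H1f1 had 44.2, 29.6 and 65.2 CPM against 13.4, 10.5, 12.4 and 12.1 CPM, a change of 1.77 (SE 0.257, edgeR adjusted p = 8.72e-06). Btf3 had 495, 448 and 672 CPM against 197, 207, 181 and 165 CPM, a change of 1.36 (SE 0.136, edgeR adjusted p = 2.77e-08). In these 3 every zygote library was above every MII library. Homer2, a synaptic scaffold gene, changed by 2.21 (SE 0.405, edgeR adjusted p = 0.000178) and the Prame-like gene Pramel34 by 1.93 (SE 0.424, edgeR adjusted p = 0.00125). Sebox changed by 1.13, the Cdc42 exchange factor gene Fgd6 by 1.02, Kdm4a by 0.84, Mrps23 by 0.80 and Dcp2 by 0.70, each called. Their direction was that of the WT zygotes, as for any member that rises, since the rule chose members higher there than in WT MII.

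Other leaders of the WT list did not pass in CKO or did so through 1 library. Btn1a1 had 1.45, 1.29 and 0.641 CPM in CKO zygotes and 0.389, 0.423, 1.54 and 1.17 CPM in CKO MII, a log2 change of 0.23 (SE 0.573, edgeR adjusted p = 0.831), and all CKO zygote libraries were below the lowest WT zygote library at 13.3 CPM. Rn7sk had 18.7, 2.58 and 3.43 CPM in CKO zygotes, a change of 0.14 (SE 0.446, edgeR adjusted p = 0.873), with replicate 1 alone above the CKO MII libraries. Eif4e1b had 381, 107 and 150 CPM in CKO zygotes and 98.6, 148, 240 and 84.2 CPM in CKO MII, a change of 0.41 (SE 0.269, edgeR adjusted p = 0.305), and the groups overlapped. Pnrc1 had 175, 29.9 and 40.4 CPM in CKO zygotes and 16.5, 31.2, 36.6 and 11.4 CPM in CKO MII, a change of 1.59 (SE 0.417, edgeR adjusted p = 0.00618). The groups overlapped, only replicate 1 came near the WT zygote values, and Pnrc1 was not called without that library.

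The 10 members that fell from CKO MII to CKO zygote went against their WT pattern. Any member that falls must do so, since members were chosen with WT zygotes above WT MII. In each of the 10 all CKO MII libraries lay above all WT MII libraries, as they did in 74 of the 200 members (27.1% of ranked genes). Picking members low in WT MII, and among them those high in CKO MII, favours this. Ppp1r10, which encodes a nuclear regulator of protein phosphatase 1, had 374, 446, 559 and 420 CPM in CKO MII and 330, 210 and 132 CPM in CKO zygotes, a log2 change of -1.18 (SE 0.272, edgeR adjusted p = 0.00202). In WT it had 132, 149 and 96.1 CPM in MII and 356, 350 and 346 CPM in zygotes. Akirin2, needed for import of proteasomes into the nucleus, had 568, 771, 696 and 492 CPM in CKO MII and 415, 318 and 347 CPM in CKO zygotes, a change of -0.97 (SE 0.175, edgeR adjusted p = 0.000145). Its WT zygote libraries had 288, 364 and 340 CPM, so the WT and CKO zygotes overlapped. Prl8a2, a gene of the prolactin family, had 49.5, 39.3, 44.5 and 46.7 CPM in CKO MII, 21.3, 23.9 and 10.1 CPM in CKO zygotes and 9.41, 13.4 and 9.16 CPM in WT MII, a change of -1.46 (SE 0.272, edgeR adjusted p = 0.000215). The zinc finger gene Zfp383 fell by 0.79 on the log2 scale (edgeR adjusted p = 0.00493). Slc26a5, which encodes prestin, changed by -1.57 (edgeR adjusted p = 0.0245) and by -1.17, no longer called, without CKO zygote replicate 1.

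The count for this step rested on CKO zygote replicate 1, the library with 27.3% Rn18s-rs5. Without it 35 members were higher and 36 lower, beside 20.7% and 21% of ranked genes, and the median was -0.14. Of the 46 members higher with all libraries 31 were called without it, among them Vaultrc5, Dph6, Spink2, Rmdn3, H1f1, Homer2, Btf3 and Dcp2, and of the 10 lower members 9 were. Replicate 1 lay above all CKO MII libraries in 142 members (71%), against 43.9% of ranked genes, while replicate 2 did in 60 (30%, against 36.7%) and replicate 3 in 68 (34%, against 39.1%). All 3 zygote libraries lay above all MII libraries in 39 members (19.5%), against 20.4% of ranked genes, and below in 5 (2.5%), against 8.29%. Of the 27 members above both CKO stages, 18 were called without replicate 1, including Vaultrc5, Spink2, H1f1, Homer2, Dcp2, Kdm4a, Sebox, Fgd6, Mrps23, Btf3, Pramel34 and the zinc finger gene Klf11. The share of ranked genes above both stages without replicate 1 is not given here. Against FGO 4W 99 members were higher and 12 lower without it, beside 44.5% and 25.7% of ranked genes, with a median of 0.63. With all libraries the higher share was 74.5% of members, beside 50% of ranked genes.

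**Figure D3:**
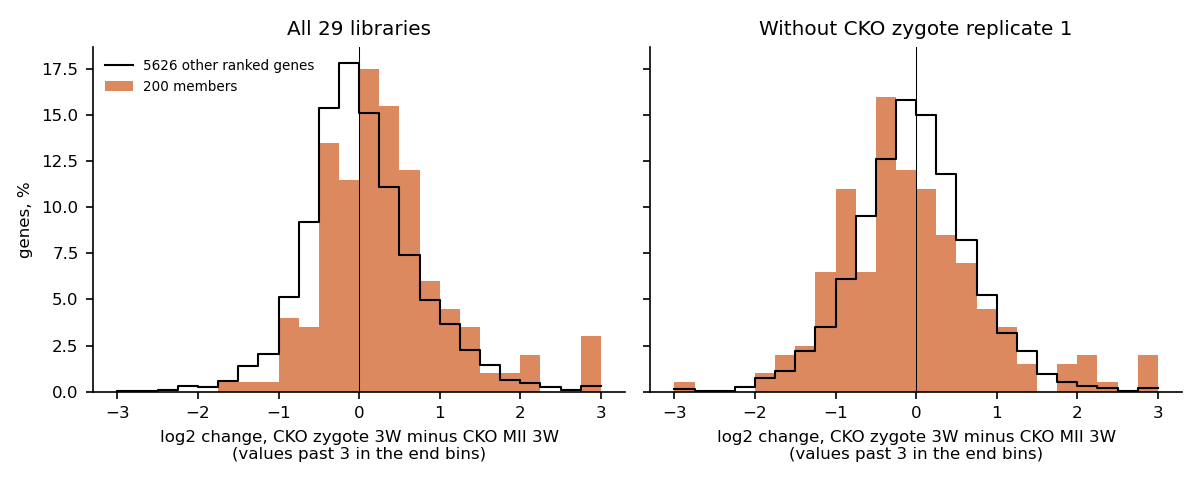
Share of genes (%, y axis) by log2 change from CKO MII 3W to CKO zygote 3W (x axis, values past 3 in the end bins), for the 200 members as filled bars and the 5626 other ranked genes as a line, with all libraries on the left and without CKO zygote replicate 1 on the right. The member median is 0.23 on the left and -0.14 on the right, and a group of members past 2 remains in both.

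The library medians show the same dependence. Relative to the mean of WT zygotes, the median log2 level of the members was -0.08, 0.06 and -0.01 in the WT zygote libraries and -1.22, -1.16 and -1.15 in WT MII. It was 0.11 in CKO zygote replicate 1 but -0.81 and -0.67 in replicates 2 and 3, whose ranked genes lay at -0.15 and -0.16. In CKO MII it was -0.98, -0.48, -0.50 and -1.26, so that replicates 2 and 3 stood above CKO zygote replicates 2 and 3. In replicates 2 and 3 of the CKO zygotes, 159 and 149 members were below all WT zygote libraries and 20 were above in each, whereas in replicate 1 73 were below and 96 above. In 7 of the 10 groups the library with the largest Rn18s-rs5 share also had the highest member median, the exceptions being CKO FGO 4W, CKO MII and WT zygotes. The part of the ribosomal RNA share in these levels was not tested.

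**Figure D4:**
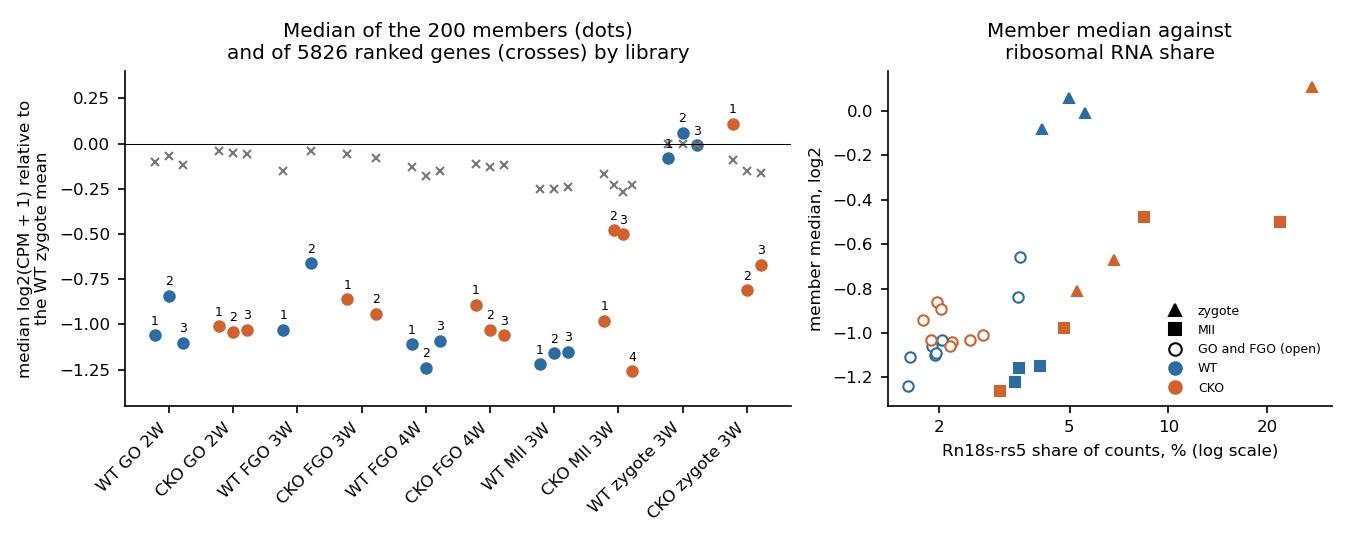
Left, median log2(CPM + 1) relative to the WT zygote mean (y axis) for the 200 members as dots with replicate numbers and for the 5826 ranked genes as crosses, by group (x axis). Right, the member median against the share of counts from Rn18s-rs5 (x axis, log scale), with triangles for zygotes, squares for MII oocytes and open circles for the other oocytes. CKO zygote replicate 1 sits at 0.11 with a share of 27.3%, and the other CKO zygotes at -0.81 and -0.67 with shares of 5.27% and 6.81%.

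From FGO 4W to MII in CKO the share of members that rose was close to that of ranked genes, and the share that fell was smaller. From CKO FGO 4W to CKO MII 119 members rose and 23 fell, beside 27.4% and 28.9% of all genes and 54% and 26.9% of ranked genes, with a median log2 change of 0.81 against 0.62. By limma on the authors' FPKM with 1 added, which are scaled to library totals, the split was 61 higher and 45 lower, and against CKO FGO 4W it was 78 higher and 20 lower in zygotes. Shares of ranked genes in these limma fits are not given here, so the splits are not read as a trait of the members. Among members with an established gene name the highest fitted change was 4.67 for Vaultrc5, which had 0.571, 0 and 0 CPM in CKO FGO 4W, so that this change depends on the prior count. It was followed by the calcium-binding protein gene S100a14 at 3.84, the transcriptional regulators Cited2 at 3.81 and Pax2 at 3.80, Prl8a2 at 3.72 and Whamm, an activator of actin branching, at 3.64. Whamm had 7.8, 5.79 and 5.99 CPM in CKO FGO 4W and 28.6, 86.6, 99.2 and 13.8 CPM in CKO MII, so every MII library was higher although the MII libraries differed among themselves. Dph6 fell by 4.13 on the log2 scale, from 210, 193 and 210 CPM, Rmdn3 fell by 2.32 and the isovaleryl-CoA dehydrogenase gene Ivd fell by 1.72. Btn1a1, Cdk17 and Dhrs3 were also among the lowest. Their changes were -2.99 to -2.39, -2.28 to -1.96 and -2.07 to -1.85 when 1 library was left out. Dph6, Rmdn3, Ivd and Cdk17 rose again in CKO zygotes, Ivd by 2.00, whereas Btn1a1 was not called. Cdk17 had 53.1, 17.5 and 13.3 CPM in the CKO zygote libraries and was not called without replicate 1. Without both libraries rich in Rn18s-rs5 it was called. That Dph6, Rmdn3 and Ivd lie on chromosome 2 between 114516416 and 119157034 was seen after their values, and other genes there were not counted.

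The same rule run on the CKO libraries chose a largely different list. It ranked 5906 genes, and its top 200 shared 37 genes with the members, 18.5% of each list. Vaultrc5, Spink2, H1f1, Homer2, Dcp2, Eif4e1b and Kdm4a were among the 37. The ratio computed on CKO libraries was over 1 for 130 members, against 27.5% of ranked genes, and 32 members had a mean under 20 CPM in CKO zygotes.

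CKO and WT zygotes are compared here without a test, because the members were chosen for high WT zygote values and the comparison is thereby shifted downward. The median of CKO minus WT, as a difference of mean log2(CPM + 1), was -0.42 for the members and -0.13 for ranked genes. It was -0.71 without CKO zygote replicate 1 and -0.26 without CKO zygote replicate 2. When each WT zygote library in turn was left out of the choice and alone stood for WT, the median was -0.30, -0.53 and -0.34, against -0.13, -0.15 and -0.11. When the list was chosen on CKO libraries by the same rule the median was 0.21, against 0.05 for the genes ranked there. Chosen on the mean of both genotypes it was -0.26, against -0.04. The CKO libraries were all below all WT libraries for 60 members and all above for 8, beside 28.7% and 16.5% of ranked genes. Rapgef4, which encodes the cAMP-activated Rap exchange factor Epac2, had 12.9, 10.4 and 11.1 CPM in CKO zygotes and 59.3, 51.5 and 47.1 CPM in WT. Xlr4a, a gene of the X-linked lymphocyte-regulated family, had 7.52, 6.9 and 6 CPM against 22.9, 21.7 and 34.4 CPM. Cth, which encodes cystathionine gamma-lyase, was higher in CKO, with 76.9, 81.8 and 165 CPM against 44.6, 47.1 and 52.6 CPM, and so was the Ras exchange factor gene Sos2, with 33.8, 31.3 and 54.2 CPM against 29.5, 18.6 and 17.3 CPM. The repressor gene Cic, the E2F factor gene E2f2 and the splicing factor gene Zrsr2, also among the members with the highest differences, were each highest in CKO replicate 1, as Cic was with 300, 40.3 and 36.3 CPM.

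The other stages of the rule were likewise described without a test, since members were chosen for low WT values there, which shifts CKO minus WT upward. At FGO 4W the CKO libraries were all above all WT libraries for 71 members and all below for 35, beside 29.8% and 31.7% of ranked genes, and the median difference was 0.13 against -0.02. At MII they were above for 74 and below for 17, beside 27.1% and 25.4% of ranked genes, with a median of 0.45 against 0.04. Dph6 had 210, 193 and 210 CPM in CKO FGO 4W and 21.2, 21.8 and 16.7 CPM in WT. Golph3, a Golgi protein gene, had 286, 403, 541 and 264 CPM in CKO MII and 126, 134 and 116 CPM in WT. Dph6 in CKO FGO 4W and Golph3 in CKO MII were thus at or near zygote levels in oocytes that had not been fertilised. In CKO MII Dph6 was not, with 10.7, 5.42, 6.02 and 9.18 CPM.

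In younger CKO oocytes the members' counts were near those of the ranked genes or below. At GO 2W, where neither genotype entered the rule, 11 members were higher and 26 lower in CKO than in WT, beside 7% and 7.1% of all genes and 5.12% and 15.2% of ranked genes, with a median log2 change of -0.31 against -0.22. CKO libraries were all above all WT libraries for 41 members and all below for 45, beside 27.7% and 25.4% of ranked genes. At FGO 3W, with 2 libraries in each group, 11 were higher and 33 lower, beside 7.91% and 10.1% of all genes and 5.24% and 22.8% of ranked genes, and the median was -0.39 against -0.33. By limma on log2(FPKM + 1) the splits were 19 higher and 16 lower at GO 2W and 18 higher and 20 lower at FGO 3W, so which direction was more frequent at GO 2W differed between these analyses, which differ in test and filter as well as in scaling. With other size factors in edgeR and with DESeq2 the lower calls at GO 2W stayed the more frequent, at 14 higher and 25 lower and at 18 and 29. Single libraries moved these counts. At GO 2W the lower count was 15, 13 and 17 without CKO replicate 1, CKO replicate 3 and WT replicate 2, and the higher count was 7 without WT replicate 1. At FGO 3W the lower count was 18, 15 and 19 without CKO replicate 1, CKO replicate 2 and WT replicate 2, and the higher counts were 7, 6 and 6. Shares of ranked genes under these alternative fits are not given here.

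A few members differed between genotypes well before the zygote. Stom, which encodes the membrane protein stomatin, had 22.3, 26.9 and 20.3 CPM in CKO GO 2W and 143, 217 and 87.6 CPM in WT, a log2 change of -2.88 (SE 0.487, edgeR adjusted p = 0.000186). At FGO 3W it had 15.1 and 14.8 CPM in CKO and 210 and 191 CPM in WT, a change of -4.02 (SE 0.626, edgeR adjusted p = 5.66e-05). In CKO FGO 4W it was at 197, 180 and 176 CPM, so the low level of younger CKO oocytes was not that of the older ones. Rapgef4 was lower in CKO at GO 2W by -1.25 (SE 0.237, edgeR adjusted p = 0.000661) and at FGO 3W by -2.66 (SE 0.302, edgeR adjusted p = 9.62e-07). Its CKO libraries were under all WT libraries of the same stage at all 5 stages. Ppp1r10 had 82.5, 78.6 and 82.8 CPM in CKO GO 2W and 282, 281 and 246 CPM in WT, a change of -1.93 (SE 0.292, edgeR adjusted p = 5.03e-05). This was the reverse of MII, where its CKO libraries were the higher ones.

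Other members were lower in CKO at FGO 3W or higher in both young groups. Dhrs3, a retinaldehyde reductase gene, had 17.3 and 19.3 CPM in CKO FGO 3W and 101 and 97.6 CPM in WT, a log2 change of -2.71 (SE 0.323, edgeR adjusted p = 1.73e-06). H1f1 had 7.66 and 9.25 CPM against 34.6 and 31.7 CPM, a change of -2.25 (SE 0.35, edgeR adjusted p = 5.67e-05), although its zygote values overlapped between genotypes. Dcp2 was lower in CKO by -0.83 at GO 2W (SE 0.183, edgeR adjusted p = 0.00261) and by -1.35 at FGO 3W (SE 0.225, edgeR adjusted p = 0.00013). Sos2 was higher by 1.39 at GO 2W (SE 0.227, edgeR adjusted p = 0.000116) and by 1.54 at FGO 3W (SE 0.275, edgeR adjusted p = 0.000262). Cth was higher by 1.21 (SE 0.224, edgeR adjusted p = 0.00052) and 0.94 (SE 0.269, edgeR adjusted p = 0.0151). Without CKO or WT replicate 2 the FGO 3W change of Cth was 0.76 and 0.78 and was not called. For both genes every CKO library was above every WT library at all 5 stages.

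Over oocyte growth few genes of any kind were called in WT, where FGO 3W has 2 libraries, and more were called in CKO. From WT GO 2W to WT FGO 3W 4 members rose and 2 fell, beside 0.672% and 0.341% of all genes and 0.755% and 0.515% of ranked genes, and the median log2 change was 0.20 against 0.05. Btn1a1 rose from 0.765, 0.234 and 0.586 CPM to 62.1 and 68.4 CPM, a change of 6.90 (SE 0.699, edgeR adjusted p = 8.47e-07). Ceacam20, a cell adhesion gene, rose by 0.99 (edgeR adjusted p = 0.00439) and by 0.86, no longer called, without WT FGO 3W replicate 1. Btla and Cd200 were the 2 that fell, with changes of -6.08 and -1.77. Without WT FGO 3W replicate 2 the changes were -5.73 and -1.54 and neither was called, and without WT FGO 3W replicate 1 they were -6.52 and -2.02 and Cd200 alone was called. The split was 5 and 4 by limma on log2(FPKM + 1) and 5 and 5 by DESeq2, with shares of ranked genes in these fits not given here. From CKO GO 2W to CKO FGO 4W 27 rose and 20 fell, beside 7.52% and 9.46% of all genes and 10.8% and 14.8% of ranked genes, with a median of 0.05. The higher count was 16, 17 and 14 without CKO FGO 4W replicate 1, CKO GO 2W replicate 1 and CKO GO 2W replicate 3, and the lower count was 12 without the last. Dph6 rose by 3.38, Stom by 3.01 and Ybx1 by 2.06, and Homer2 fell by 2.84, Gcnt2, a glycosyltransferase gene, by 2.51 and the nucleotide kinase gene Cmpk2 by 2.26.

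Members with the G-quadruplex motif spanned a wider range of levels over CKO libraries than those without. In CKO zygote replicate 1 the median level relative to WT zygotes was 0.65 for the 67 members with a motif and -0.02 for the 108 without, and in the other ranked genes it was 0.31 and -0.16. In replicates 2 and 3 it was -0.84 and -0.54 with the motif and -0.76 and -0.81 without. In CKO MII the medians were -0.64, -0.04, -0.07 and -1.10 with the motif and -1.03, -0.67, -0.70 and -1.26 without, so members with a motif were higher in each of the 4 libraries. The other ranked genes had medians of -0.01, 0.22, 0.13 and -0.24 with it and -0.17, -0.27, -0.31 and -0.18 without. In WT MII the member medians were -1.16, -1.14 and -1.07 with the motif against -1.15, -1.14 and -1.20. Among the tertile of transcripts highest in GC, medians in CKO zygote replicate 1 were 1.07 with the motif and 0.27 without, in the middle tertile 0.63 and -0.12, and in the lowest tertile -0.44 and -0.21. In CKO MII the lowest-tertile members had medians of -0.92, -0.77, -0.53 and -1.06 with the motif and -0.80, -0.53, -0.54 and -0.98 without. Over all members the gap was largest in the library richest in Rn18s-rs5 in 5 of the 10 groups. The part of ribosomal RNA or GC content in the gap was not tested. In growing oocytes the median of CKO minus WT was -0.43 with the motif and -0.28 without, and at FGO 3W it was -0.53 and -0.32. For the other ranked genes these medians were -0.29 and -0.20 at GO 2W and -0.43 and -0.32 at FGO 3W. From CKO MII to CKO zygote 6 of the 67 and 27 of the 108 were called higher, beside 171 of 925 and 920 of 4383 among the other ranked genes.

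**Figure D5:**
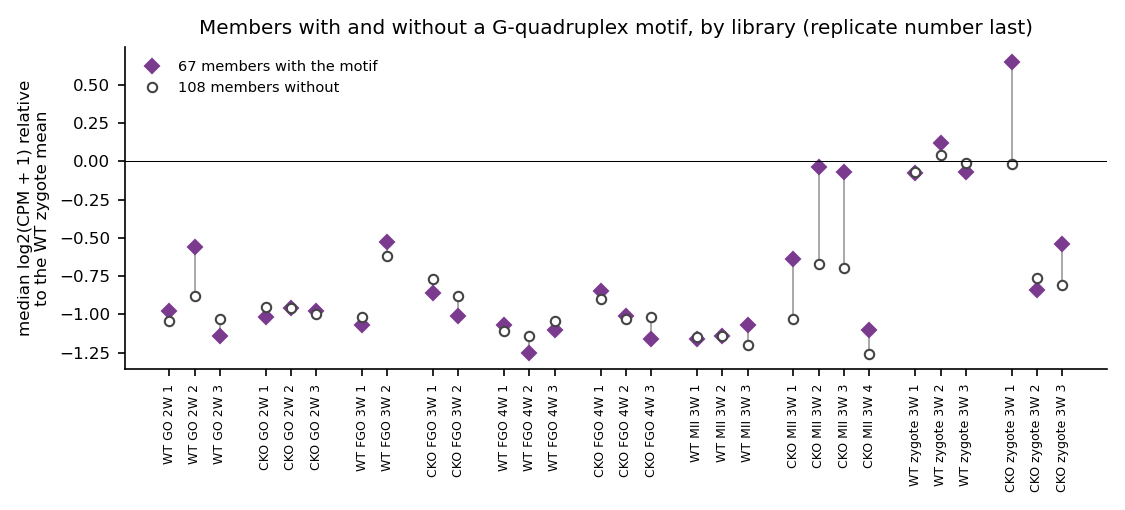
Median log2(CPM + 1) relative to the WT zygote mean (y axis) of the 67 members with a G-quadruplex motif (diamonds) and the 108 without (circles) in each library (x axis), joined by a line. The gap is widest in CKO zygote replicate 1, with 0.65 and -0.02, and in CKO MII replicates 2 and 3, while in WT MII and in WT zygotes the symbols lie close together.

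Several members differed strongly between libraries of 1 group. A spread of at least 4-fold in CPM plus 1, with the highest library at 20 CPM or more, occurred in 36 members (18%) in CKO zygotes, against 4.41% of ranked genes, and in 16 (8%) in CKO MII, against 1.96%. In WT FGO 4W it occurred in 8 members (4%), against 0.601%, and in WT MII and WT zygotes in none. In 30 of the CKO zygote cases replicate 1 was the highest. Btla went the other way, with 1.45, 1.47 and 69.2 CPM in CKO zygotes and 100, 57.3 and 36.1 CPM in WT zygotes. Its neighbour on chromosome 16, Cd200, which encodes a ligand of an inhibitory immune receptor, had 37.3, 36.6 and 68.3 CPM in CKO zygotes, with the same replicate highest. Dph6, Spink2 and Ivd were lowest in that same CKO zygote replicate 3, where Ivd had 4.58 CPM against 17.1 and 36.8 CPM. In WT FGO 4W replicate 2 was high for Stom, with 41.5, 233 and 21.3 CPM, for Pramel34, with 40.2, 139 and 14.8 CPM, and for Homer2, with 5.49, 26.5 and 3.43 CPM, and it was low for Ppp1r10, with 217, 57.8 and 203 CPM. What these libraries share was not tested.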

How the data were processed

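Smart-seq2 libraries of 10 pooled cells were read as 2 tables. The authors deposited raw counts, whole numbers of reads for each gene symbol, and the submitters' processing notes name Trim Galore, FastQC, HISAT2, SAMtools, featureCounts and the build mm10, with versions, annotation release and strand setting not given in the sources used here. The FPKM were computed by the authors and deposited beside the counts. Even numbers made up 81% of the counts between 1 and 20, as if read pairs added 2. No row of the count table carried a spike-in name. Reads carry no molecular identifiers, and depth is given above.

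The members, lists and tests were chosen with earlier results of these data known. Groups follow the labels. CPM were computed after removing the Rn18s-rs5 row. The main test was edgeR 4.0.16 under R 4.3.3, with TMM size factors, filterByExpr with a minimum count of 10 (21714 genes), trended dispersions, 1 model of 10 groups with 19 residual degrees of freedom and quasi-likelihood tests, adjusted by Benjamini-Hochberg over all genes tested in each of 7 comparisons at a threshold of 0.05. The fit was tested on simulated data. Genes named are those with the largest ratio, level or called change with ranges apart, the members of fixed lists and those at the rule's edge, and other names were chosen after their values were seen. Alternatives were DESeq2 1.42.0, limma 3.58.1 on log2(FPKM + 1) or log2(FPKM + 0.1), other size factors, no filter, a fit of 2 groups, the replicate number as a block, other forms of the rule and each library left out. Transcripts and coordinates come from GENCODE vM21 (GRCm38) and promoters from RefSeq GRCm38.p6, searched in Python 3.11.15 (NumPy 2.4.6, pandas 2.3.3).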

Additional observations from a re-analysis of the deposited data

Results flagged for a closer look

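Single libraries were compared with the rest of their group in CKO MII, which has 4 libraries, and not in the groups of 2 or 3. Of the 58 named members 2 had a library far from the others there, and chance alone sets about 1 in 20 groups apart in this way. Cd200 was lowest in 1 of the 4 CKO MII libraries, with 53 CPM against 84.2 to 86.5 CPM in the others. Apba1, which encodes a neuronal adaptor protein, was highest in 1 CKO MII library, with 31.3 CPM against 16.3 to 18.3 CPM.

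The difference between genotypes had opposite signs at GO 2W and FGO 3W in 2 named members, though the FGO 3W change of Dph6 was small. Btn1a1 had a log2 change of CKO minus WT of 1.65 at GO 2W, from 0.765, 0.234 and 0.586 CPM in WT to 1.46, 1.33 and 3.19 CPM in CKO, and of -3.09 at FGO 3W, where CKO libraries had 9.04 and 9.52 CPM. Dph6 had a change of -2.42 at GO 2W, with 20.5, 20.4 and 19 CPM in CKO, and of 0.11 at FGO 3W, where CKO libraries had 25.1 and 24.6 CPM against 19.4 and 18.6 CPM. These differences between ages were not tested. Over all members 8 of 200 had ranges apart in opposite directions at these stages, a share close to the 3.91% of ranked genes.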

How the results depend on the processing

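Over 73 named gene and comparison pairs in 1135 alternatives, 1094 kept direction and call, 41 lost the call and 0 changed direction. For CKO zygote against CKO MII, a fit of these 2 groups alone called 16 members higher and 2 lower, and 21 were lower without both libraries rich in Rn18s-rs5. Leaving out 1 library gave 35 to 62 higher, 8 to 36 lower and medians of -0.14 to 0.37. For CKO zygote against CKO FGO 4W, no filter gave 10 lower, log2(FPKM + 1) 78 higher, 20 lower and a median of 0.34, and log2(FPKM + 0.1) 77, 20 and 0.38. Without the libraries rich in Rn18s-rs5 13 were lower with a median of 0.63, and leaving out 1 library gave 99 to 153 higher, 5 to 12 lower and 0.63 to 1.25. For CKO MII against CKO FGO 4W, log2(FPKM + 1) gave 61, 45 and 0.10 and log2(FPKM + 0.1) 60, 46 and 0.11. For CKO FGO 4W against CKO GO 2W, the median was 0.11 with other size factors, 0.01 without a filter and 0.11 with DESeq2, and a fit of 2 groups called 64 and 43. Leaving out 1 library gave 14 to 25 higher, 12 to 18 lower and medians of -0.04 to 0.12, the negative one without CKO FGO 4W replicate 1. For WT FGO 3W against WT GO 2W, no filter gave 11 and 7, a fit of 2 groups 7 higher, DESeq2 5 lower, log2(FPKM + 1) 4 lower and leaving out 1 library 0 to 3 lower. For CKO against WT at GO 2W, no filter gave 17 higher, DESeq2 18, a fit of 2 groups 29 and 47, log2(FPKM + 1) 19, 16 and -0.07, log2(FPKM + 0.1) 20, 14 and -0.08, and leaving out 1 library 7 to 11 higher and 13 to 22 lower. At FGO 3W, no filter gave 18 higher, a fit of 2 groups 22, log2(FPKM + 1) 18, 20 and -0.08, log2(FPKM + 0.1) 17 higher, and leaving out 1 library 6 to 8 higher and 15 to 29 lower. The list shared 111 members with a minimum of 50 CPM, 100 with the top 100, 73 with the rule on FPKM and 101 with TMM-normalised levels, whose list had 37% called higher in CKO zygotes. Leaving out 1 library kept 169 to 192 members. The zygote difference was 0.21 with the rule on CKO libraries and -0.71 to -0.26 with 1 library left out. The FPKM fits differ in test, filter and scaling, and the cause of the shifts was not tested. Member counts in this paragraph stand without the shares of ranked genes, so they show only how the counts moved.

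Same-numbered libraries correlated in their deviations from the group means at -0.615, -0.391 and -0.341 between CKO zygotes and CKO MII, at -0.506 between genotypes at FGO 3W and at 0.337 and 0.711 between WT FGO 3W and WT GO 2W, so the numbers were not taken as pairing the samples. With the replicate number as a block, which sets CKO MII replicate 4 aside, the counts were 44 higher and 10 lower for CKO zygote against CKO MII and no count moved by over 1.5 times. At FGO 3W the crossed pairing gave 12 higher and 35 lower, against 13 and 34 with the numbers as labelled. Depth limits members at or under about 1 CPM in oocytes, such as Vaultrc5, Btn1a1 and Spink2, whose fitted changes depend on the prior count. FGO 3W rests on 2 libraries a group.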
